A study of Mus musculus with 8 samples.

Results

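The CDK inhibitor genes of the Cip/Kip family (Cdkn1a, Cdkn1b and Cdkn1c) and of the INK4 family (Cdkn2a, Cdkn2b, Cdkn2c and Cdkn2d), together with the D-type cyclin genes Ccnd1, Ccnd2 and Ccnd3, were examined in B16F10 cells, a mouse melanoma line. These 10 genes were picked by symbol from the 55414 genes of the expression table. The rule used no expression values, but earlier results of these data were known when the genes were chosen. RNA was sequenced in 8 libraries, 2 for each of 4 groups, all made after 24 h at a set oxygen concentration. The groups at 21% oxygen were unmodified B16F10 cells (WT) and cells in which Ppif was knocked out by CRISPR/Cas9 (CypD KO), kept as clones selected with puromycin. The groups at 1% oxygen were cells stably carrying the empty pcDNA vector (Control) and cells stably carrying the vector with Ppif (CypD OE), both grown from clones resistant to G418. Ppif encodes cyclophilin D (CypD), a mitochondrial peptidyl-prolyl isomerase that regulates opening of the mitochondrial permeability transition pore. WT cells carried neither the vector nor the selection, so a difference between Control and WT mixes oxygen with vector, selection and clone, which cannot be told apart. A difference between CypD KO and WT was likewise a difference between selected clones and unselected cells. CypD OE and Control came from different clones, so a difference between them mixes the Ppif insert with clone, which cannot be told apart. The labels and methods do not say that the 2 libraries of a group came from separate cultures, so p-values measured only the spread between these samples, which may be technical.

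D-type cyclins bind the kinases CDK4 and CDK6 and turn them towards the retinoblastoma protein, which frees E2F factors to switch on the genes of S phase. INK4 proteins bind CDK4 and CDK6 and keep cyclin D off them, whereas Cip/Kip proteins restrain cyclin-CDK complexes more broadly, above all those of CDK2, and also help cyclin D and CDK4 to assemble. Ccnd genes are classical readouts of growth factor signalling, Cdkn1a is the classical p53 target that arrests the cycle, and loss of the Cdkn2a locus is common in melanoma.

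Expression values were TPM, the abundance of a gene's transcripts per length relative to all genes of the library. TPM can thus be compared between genes, and between libraries only as a share of each library's total. Tests were made on log2(TPM + 1), which makes changes of weakly expressed genes look smaller than they are. They covered 13526 genes, those that reached 1 TPM in 2 or more libraries. limma fitted the 4 group means together, with Benjamini-Hochberg adjustment over every gene tested and a threshold of 0.05. With 2 libraries a group, no exact permutation test of a single gene (two-sided) could give a p under 0.333. From the steps between low values, 1 fragment on a gene of 1 kb effective length was worth 0.082 to 0.0975 TPM. Replicates correlated at 0.983 to 0.985, over genes and not over independent samples. Ppif had 50.68 and 49.99 TPM in WT but 10.44 and 12.11 TPM in CypD KO, with a log2 fold change of -2.07 (SE 0.0731, limma adjusted p = 3.81e-06). In Control it had 44.59 and 42.25 TPM and in CypD OE, as labelled, 50.29 and 49.28 TPM. The log2 fold change of 0.19 did not pass the test (limma adjusted p = 0.0794). The authors report raised CypD protein in their stable overexpressing B16F10 cells by western blot. Directions drawn from CypD OE therefore rest on the label and that report, and not on Ppif RNA. The 7 melanocyte and melanoma markers summed to 12430 to 12590 TPM in CypD KO, 13590 to 13760 TPM in CypD OE, 15670 to 15750 TPM in WT and 20450 to 20980 TPM in Control. Of the 7, 1 was higher and 5 were lower in CypD KO against WT, where 48.4% of all genes tested were called. The higher gene was Tyr, at 37.44 and 41.25 TPM in WT and 167.01 and 147.1 TPM in CypD KO. Leukocyte markers summed to 22.28 to 23.4 TPM in CypD KO and to between 1.15 and 4.81 TPM in the other groups, with Cd3e listed at 0 in all 8 libraries. Nearly all of the sum in CypD KO was Cd68, at 21.85 and 23.33 TPM. Fibroblast markers summed to 34.16 to 37.19 TPM in CypD KO and to between 9.23 and 20.97 TPM in the others, with Dcn and Thy1 listed at 0 in all 8 libraries. In CypD KO this sum was mostly Postn, at 34.77 and 31.22 TPM beside 8.04 and 8.07 TPM in WT. Col1a2 went the other way, from 9.03 and 6.87 TPM in WT to 1.09 and 2.17 TPM in CypD KO. The part of these markers in the differences described next was not tested, and in RNA from whole cultures fewer cells of a type and less RNA per cell cannot be told apart.

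Of the 10 genes, 8 reached the TPM filter. Cdkn2a and Cdkn2b were listed at 0 in every library. In CypD KO against WT, 6 of the 8 were higher and 0 lower (limma), where 48.4% of all genes tested were called, 30.1% higher and 18.4% lower. Rescaling by median-of-ratios kept those 6 calls but moved the split of all calls from 4066 higher and 2486 lower to 3204 higher and 3482 lower. Ccnd1, Cdkn1a and Ccnd2 rose most, by 3.07-fold, 2.85-fold and 2.39-fold in mean TPM, so that an inhibitor and 2 cyclins stood together at the top. In CypD OE against Control, 5 of the 8 were higher and 2 lower, where 37.4% of all genes were called, 19% higher and 18.3% lower. Those differences were smaller: the mean TPM of Cdkn2d was 1.41 times and that of Ccnd1 1.36 times the Control mean, and Cdkn2c and Cdkn1b fell to 0.754 and 0.795 of it. The median log2 fold change of the 8 was 0.56 in CypD KO against WT, beside 0.09 over all genes, and 0.19 in CypD OE against Control, beside 0.0021 over all genes.

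**Figure D1:**
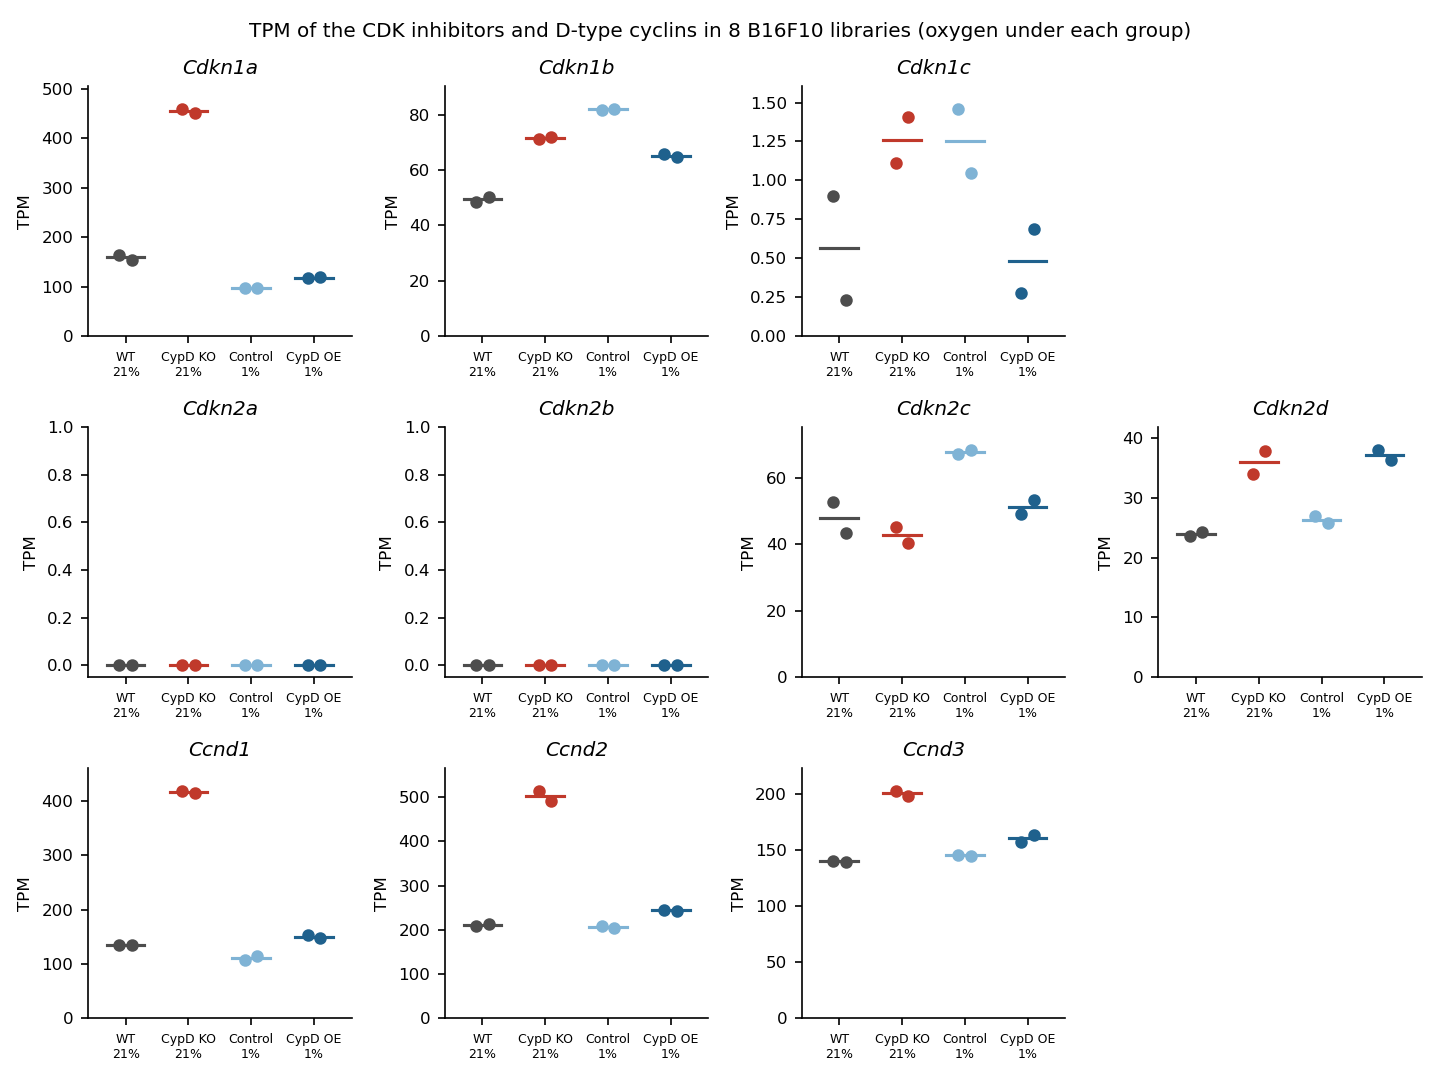
TPM (vertical axis of each panel, from 0) of the 10 genes in the 4 groups, with 1 point per library and a bar at the mean of each group; the oxygen concentration stands under each group name. The CypD KO libraries are far above the others for Cdkn1a, Ccnd1 and Ccnd2, Control is highest for Cdkn1b and Cdkn2c, and Cdkn2a and Cdkn2b lie at 0 throughout.

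Cdkn1a encodes p21, which inhibits CDK2 complexes and binds PCNA, and lies on chromosome 17 (29309936 to 29319701 of GRCm39, plus strand; ENSMUSG00000023067). Its libraries had 164.59 and 154.16 TPM in WT, 459.15 and 450.20 TPM in CypD KO, 97.12 and 96.64 TPM in Control, and 116.89 and 120.37 TPM in CypD OE. No group overlapped with another, and the order was CypD KO, WT, CypD OE, Control. The log2 fold change was 1.51 in CypD KO against WT (SE 0.0396, limma adjusted p = 1.24e-06) and 0.29 in CypD OE against Control (SE 0.0396, limma adjusted p = 0.00171). At 1% oxygen both stable lines were below WT, by a log2 fold change of -0.71 for Control (limma adjusted p = 0.000101) and -0.42 for CypD OE (limma adjusted p = 0.000643). These were among 4 of 8 genes called in Control against WT, where 24.2% of all genes were called, and 6 of 8 in CypD OE against WT, where 27.7% were called. Dino and Gm64878 overlap Cdkn1a on the opposite strand, and since the strand setting of the counting is not given in the sources used here, their reads could be part of its value. Each of the other genes of the 10 apart from Cdkn2a also overlaps an annotated antisense gene, such as Bysl for Ccnd3.

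The start regions of Cdkn1a are shown because it rose most of the inhibitors in CypD KO. RefSeq (GRCm38.p6) gives Cdkn1a a pair of start windows whose starts lie 2790 bases apart. The 150 bases before the upstream start (chr17:29090829-29090978, plus strand) hold 2 matches to the p53 decamer consensus, in capitals:
Cdkn1a, upstream start: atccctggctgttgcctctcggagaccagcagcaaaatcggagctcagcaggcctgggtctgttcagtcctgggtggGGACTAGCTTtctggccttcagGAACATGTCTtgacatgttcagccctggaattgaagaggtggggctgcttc
The 150 bases before the downstream start (chr17:29093619-29093768, plus strand) hold none, but hold 2 GC boxes (GGGCGG on either strand, the letters that Sp1-type factors bind), in capitals:
Cdkn1a, downstream start: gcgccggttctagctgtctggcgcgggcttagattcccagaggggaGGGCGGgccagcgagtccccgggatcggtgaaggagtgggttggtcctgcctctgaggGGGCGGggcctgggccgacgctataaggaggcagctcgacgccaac
Of all 32851 windows of the same length in the table, 4.01% hold a p53 decamer and 28.6% hold a GC box. Of the 10 genes, 7 have an entry in the table, and Ccnd1, Ccnd2 and Cdkn1c have none. Among these 7, the window of Cdkn2d also holds 1 p53 decamer, but that window lies inside 2 annotated transcripts of the gene.

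Cdkn1b encodes p27, the Cip/Kip inhibitor that accumulates in resting cells and is removed through SKP2 when they enter the cycle; it lies on chromosome 6 (134897364 to 134902476, plus strand; ENSMUSG00000003031). Its libraries gave 48.59 and 50.23 TPM in WT, 71.34 and 71.86 TPM in CypD KO, 81.85 and 82.12 TPM in Control, and 65.66 and 64.63 TPM in CypD OE. WT was the lowest group and Control the highest, with no overlap between groups. Its log2 fold change was 0.53 in CypD KO against WT (SE 0.0379, limma adjusted p = 6.52e-05) and -0.33 in CypD OE against Control (SE 0.0379, limma adjusted p = 0.000836). Control was 1.66 times WT, a log2 fold change of 0.72 (limma adjusted p = 7.77e-05). Cdkn1a and Cdkn1b therefore moved the same way in CypD KO and opposite ways in CypD OE against Control and in Control against WT, which share the Control libraries. They also differed in direction in CypD OE against WT, where Cdkn1b was higher by 0.39 (limma adjusted p = 0.000684) and Cdkn1a lower. Cdkn1a made up 75.4% to 77.2% of the summed TPM of both genes in WT, 86.2% to 86.6% in CypD KO, 54.1% to 54.3% in Control and 64% to 65.1% in CypD OE. The antisense gene Gm44238 overlaps Cdkn1b. The 150 bases before its start (chr6:134920251-134920400 of GRCm38.p6, plus strand) hold 1 GC box, in capitals, and no p53 decamer:
Cdkn1b: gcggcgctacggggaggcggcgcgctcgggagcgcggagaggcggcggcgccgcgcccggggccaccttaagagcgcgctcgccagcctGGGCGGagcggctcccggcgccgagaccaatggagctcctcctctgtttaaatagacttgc

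Cdkn1c encodes p57, an imprinted Cip/Kip inhibitor best known from embryonic growth; it lies on chromosome 7 (143012069 to 143014806, minus strand; ENSMUSG00000037664). Values were 0.90 and 0.23 TPM in WT, 1.11 and 1.41 TPM in CypD KO, 1.46 and 1.05 TPM in Control, and 0.28 and 0.69 TPM in CypD OE. These values correspond to 4.1 to 26.6 fragments per library, so single libraries differed widely within a group. No comparison passed the test: the log2 fold change was 0.56 in CypD KO against WT (SE 0.268, limma adjusted p = 0.128) and -0.61 in CypD OE against Control (SE 0.268, limma adjusted p = 0.12). The CypD KO difference passed only without WT replicate 1, at 0.87 (limma adjusted p = 0.049).

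The INK4 family split into a pair listed at 0 and an expressed pair. Cdkn2a, whose alternative reading frames give p16 and p19 (ARF), the latter a stabilizer of p53, lies on chromosome 4 (89192708 to 89212890, minus strand; ENSMUSG00000044303), and Cdkn2b, which encodes p15, lies beside it (89223204 to 89229276, minus strand; ENSMUSG00000073802). Both were listed at 0 in all 8 libraries, so there is no fold change for either. Whether the genes are present in the DNA of these cells was not tested. At the estimated worth of 1 fragment, 3 fragments would be 0.378 to 0.447 TPM for Cdkn2a and 0.0975 to 0.116 TPM for Cdkn2b, a limit that covers counting error only. The gene value does not separate the p16 from the p19 transcript.

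The genes around them were not all low. Mtap, the neighbouring methylthioadenosine phosphorylase gene whose start lies 157.5 kb before that of Cdkn2a on the chromosome, was listed at 231.88 to 305.88 TPM. Klhl9, 572.2 kb away on the same side, was listed at 49.26 to 70.85 TPM. On the other side Dmrta1, 354.8 kb away, and Elavl2, 2076 kb away, reached at most 0.02 and 0.08 TPM. Ifnb1, an interferon gene 771.9 kb away on the side of Mtap, was also low, at 0 to 0.31 TPM. Of the 5 neighbours tested, 3 were higher and 0 lower in CypD KO against WT, and 1 was higher and 3 were lower in CypD OE against Control. Over all genes tested, 48.4% and 37.4% were called in these comparisons. Rescaling by median-of-ratios added 1 lower call in CypD KO. Hacd4, a gene of fatty acid elongation, changed most and had 2.73 and 2.21 TPM in WT, 12.86 and 12.67 TPM in CypD KO, 4.06 and 4.38 TPM in Control and 1.11 and 1.06 TPM in CypD OE.

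**Figure D2:**
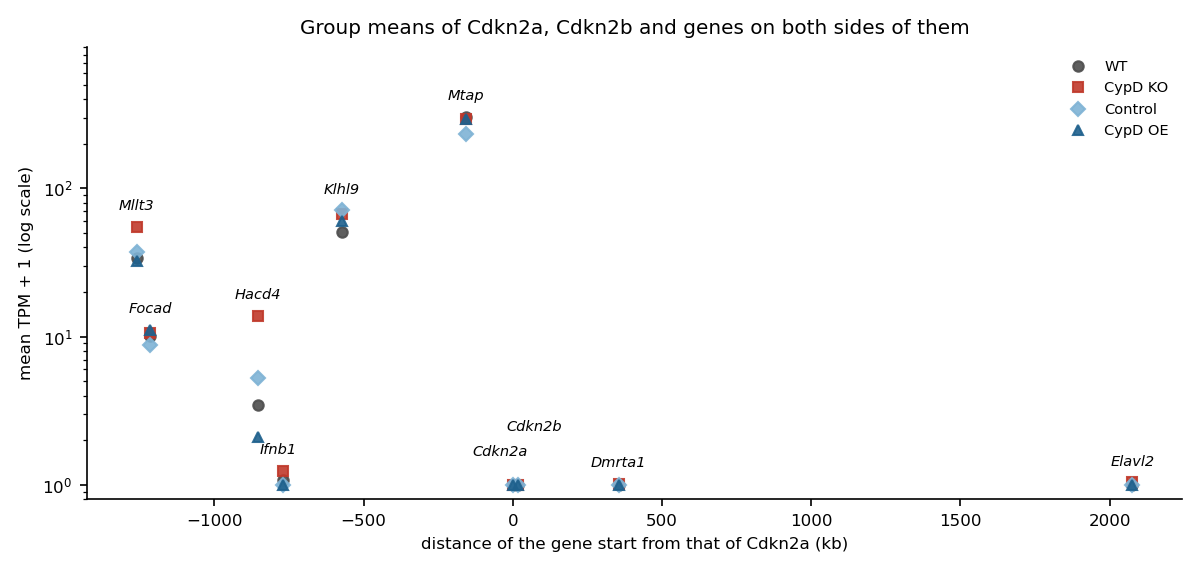
Mean TPM + 1 (vertical log axis) of each group for Cdkn2a, Cdkn2b and 8 neighbouring genes, against the distance of the gene start from that of Cdkn2a in kb (horizontal axis, negative towards lower coordinates). Mtap is the most abundant gene shown, and Cdkn2a, Cdkn2b, Ifnb1, Dmrta1 and Elavl2 lie at or next to 1, the position of a gene listed at 0.

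Cdkn2c encodes p18, an INK4 inhibitor of CDK4 and CDK6 (chromosome 4, 109517957 to 109524386, minus strand; ENSMUSG00000028551). Its levels were 52.61 and 43.50 TPM in WT, 45.15 and 40.36 TPM in CypD KO, 67.29 and 68.46 TPM in Control, and 49.00 and 53.36 TPM in CypD OE. Control stood above all other libraries, whereas WT and CypD KO overlapped. The log2 fold change in CypD KO against WT was -0.16 (SE 0.0988, limma adjusted p = 0.224), and without WT replicate 2 it was -0.30 and passed the test (limma adjusted p = 0.0439). Against Control, CypD OE differed by -0.40 (SE 0.0988, limma adjusted p = 0.0185), a call lost without Control replicate 1, Control replicate 2 or CypD OE replicate 1 (limma adjusted p = 0.066, 0.0783 and 0.0986). Control was above WT by 0.50 (limma adjusted p = 0.0131), a call lost without either Control library (limma adjusted p = 0.0557 and 0.0637) and in a fit of those 4 libraries alone (limma adjusted p = 0.0531).

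Cdkn2d encodes p19 of the INK4 kind, a cell-cycle-regulated inhibitor unrelated in sequence to the ARF protein (chromosome 9, 21199700 to 21202727, minus strand; ENSMUSG00000096472). Levels of Cdkn2d were 23.59 and 24.24 TPM in WT, 33.98 and 37.81 TPM in CypD KO, 26.91 and 25.72 TPM in Control, and 37.99 and 36.30 TPM in CypD OE. CypD KO and CypD OE formed an upper pair of groups and WT and Control a lower one. The log2 fold change was 0.56 in CypD KO against WT (SE 0.067, limma adjusted p = 0.000573) and 0.48 in CypD OE against Control (SE 0.067, limma adjusted p = 0.00182). Neither neighbouring pair in this order passed a test, with a log2 fold change of -0.05 for CypD KO against CypD OE (SE 0.067, limma adjusted p = 0.578) and 0.13 for Control against WT (SE 0.067, limma adjusted p = 0.2). Cdkn2c and Cdkn2d thus differed in direction in CypD OE against Control, and the share of Cdkn2c in their summed TPM was 71.4% to 72.7% in Control and 56.3% to 59.5% in CypD OE.

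Ccnd1 encodes cyclin D1, the D-type cyclin most directly tied to growth factor signalling (chromosome 7, 144483668 to 144493662, minus strand; ENSMUSG00000070348). It had 135.48 and 135.66 TPM in WT, 418.28 and 414.96 TPM in CypD KO, 106.62 and 113.76 TPM in Control, and 152.97 and 147.56 TPM in CypD OE. No groups overlapped. The log2 fold change was 1.61 in CypD KO against WT (SE 0.0395, limma adjusted p = 1.17e-06), the highest of the 10 genes in that comparison. It was 0.44 in CypD OE against Control (SE 0.0395, limma adjusted p = 0.000265) and -0.30 in Control against WT (SE 0.0395, limma adjusted p = 0.00282). CypD OE was 1.11 times WT (limma adjusted p = 0.0334), a call that 10 of 15 alternatives lost, with an adjusted p of up to 0.151 from limma without CypD OE replicate 1.

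Ccnd2 encodes cyclin D2 (chromosome 6, 127102125 to 127129156, minus strand; ENSMUSG00000000184) and was the most abundant of the 10 genes in every library. Levels of Ccnd2 were 208.25 and 212.13 TPM in WT, 514.45 and 491.39 TPM in CypD KO, 209.25 and 205.22 TPM in Control, and 245.65 and 242.71 TPM in CypD OE. WT and Control overlapped, with a log2 fold change of -0.02 between them (SE 0.0323, limma adjusted p = 0.691). Both modified lines were above their controls, by 1.25 in CypD KO (SE 0.0323, limma adjusted p = 1.17e-06) and 0.24 in CypD OE (SE 0.0323, limma adjusted p = 0.00172) on the log2 scale.

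Ccnd3 encodes cyclin D3 (chromosome 17, 47815767 to 47910624, plus strand; ENSMUSG00000034165) and varied least of the D-type cyclins, over 0.52 on the log2 scale between group means. Levels of Ccnd3 were 140.31 and 139.51 TPM in WT, 202.91 and 198.34 TPM in CypD KO, 145.85 and 144.81 TPM in Control, and 157.59 and 163.10 TPM in CypD OE. Only CypD KO stood well apart. The log2 fold change was 0.52 in CypD KO against WT (SE 0.0319, limma adjusted p = 3.36e-05) and 0.14 in CypD OE against Control (SE 0.0319, limma adjusted p = 0.0135). The latter call was lost without Control replicate 2 (limma adjusted p = 0.0594), without CypD OE replicate 2 (limma adjusted p = 0.0746) and in a test without a trend in mean expression (limma adjusted p = 0.066). Cores of the hypoxia response element (ACGTG or GCGTG on either strand) lie in start windows of Cdkn2a, Cdkn2b, Cdkn2c and Ccnd3. The windows of Cdkn2c are inside annotated transcripts, and 28.6% of all windows hold such a core. The 150 bases before the second Ccnd3 start (chr17:47593317-47593466 of GRCm38.p6, plus strand) hold 1 GC box, in capitals, and 1 such core:
Ccnd3: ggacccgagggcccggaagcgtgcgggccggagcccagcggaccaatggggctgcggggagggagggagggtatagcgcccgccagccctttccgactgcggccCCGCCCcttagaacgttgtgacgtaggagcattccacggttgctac

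**Figure D3:**
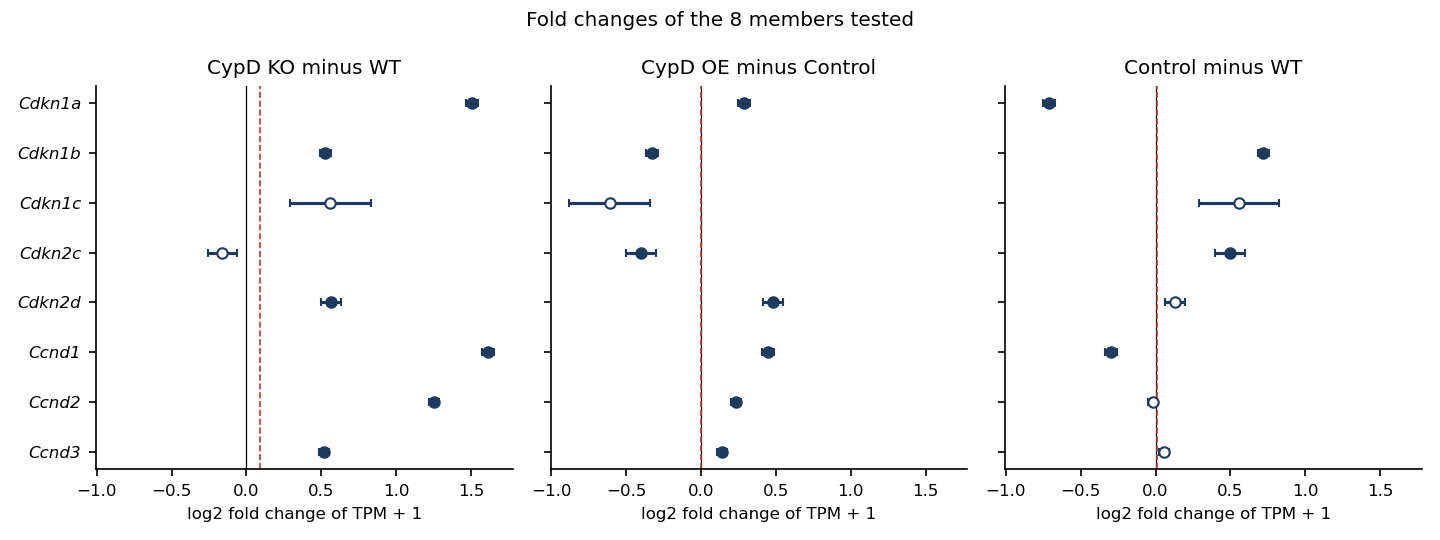
Log2 fold change of TPM + 1 (horizontal axis) of the 8 genes tested in 3 comparisons, with the standard error from limma as bars; filled points passed the adjusted threshold of 0.05, open points did not, and the dashed line is the median of all genes tested. Control against WT shares the WT libraries with CypD KO against WT and the Control libraries with CypD OE against Control, so the panels are not independent. Points for Cdkn1a and Ccnd1 lie right of 0 in the first 2 panels and left of 0 in the last, and Cdkn1b does not follow them.

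CypD KO was compared with both 1% oxygen groups only to place the levels in order. Against Control, 7 of the 8 genes were called, where 44.0% of all genes were, and against CypD OE 5 were, where 48.9% of all genes were. For Cdkn1a, Ccnd1, Ccnd2 and Ccnd3, CypD KO was the highest of the 4 groups and passed the test against each of the others. Cdkn1b in CypD KO lay between Control (log2 fold change -0.19, limma adjusted p = 0.00611) and CypD OE (0.13, limma adjusted p = 0.0241). Cdkn2c in CypD KO was below Control by 0.66 (limma adjusted p = 0.00191), while its difference of -0.26 from CypD OE did not pass the test (limma adjusted p = 0.0716). The rise in CypD KO was therefore above every other group for the D-type cyclins and Cdkn1a, and for none of the other inhibitors.

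Added together, the D-type cyclins came to 484 to 487.3 TPM in WT, 1105 to 1136 TPM in CypD KO, 461.7 to 463.8 TPM in Control and 553.4 to 556.2 TPM in CypD OE. Ccnd2 held 43% to 45.3% of this sum in every library. The share of Ccnd1 went from 27.8% to 28% in WT to 36.8% to 37.6% in CypD KO, and that of Ccnd3 from 28.6% to 29% to 17.9% to 18%. The mixture of D-type cyclin transcripts in CypD KO thus held a higher share of Ccnd1 and a lower share of Ccnd3, with the ranges apart. The sum of the 4 inhibitors above 2 TPM was also highest in CypD KO, where Cdkn1a made up most of it and Cdkn2c did not pass the test. Divided by that of the D-type cyclins, it was 0.558 to 0.598 in WT, 0.537 to 0.543 in CypD KO, 0.588 to 0.592 in Control and 0.485 to 0.496 in CypD OE. The ratio of inhibitor to cyclin transcripts thus ranged from 0.485 to 0.598 over all 8 libraries, with CypD OE below every other group. Both sums were highest in CypD KO.

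The kinases that D-type cyclins bind moved in opposite directions in CypD KO. Cdk4, the more abundant of both in these libraries, had 440.17 and 405.31 TPM in WT and 272.46 and 290.63 TPM in CypD KO, a log2 fold change of -0.58 (SE 0.054, limma adjusted p = 0.000185). In Control and CypD OE it was listed at 409.76 and 400.64 TPM and at 365.92 and 343.20 TPM, a log2 fold change of -0.19 (limma adjusted p = 0.0298). Cdk6, the other partner, rose from 7.16 and 7.26 TPM in WT to 14.96 and 14.78 TPM in CypD KO (log2 fold change 0.95, limma adjusted p = 0.000392) and from 4.44 and 5.53 TPM in Control to 14.48 and 15.00 TPM in CypD OE (1.40, limma adjusted p = 0.000123). Cdk4 outweighed it, since Cdk6 held at most 5.2% of their summed TPM. The D-type cyclin sum was 1.08 to 1.18 times that of both kinases in WT, 3.62 to 3.95 times in CypD KO, 1.11 to 1.14 times in Control and 1.46 to 1.54 times in CypD OE. CypD KO was thus the group in which D-type cyclin transcripts exceeded those of their kinases most.

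**Figure D4:**
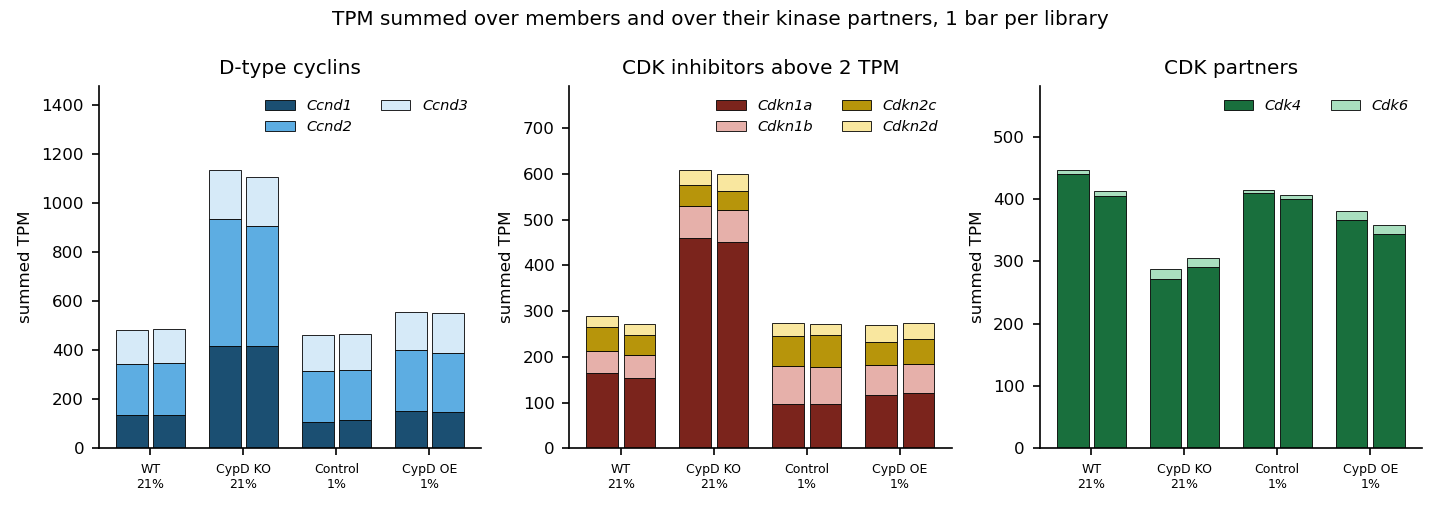
Summed TPM (vertical axes, from 0) of the D-type cyclins, of the CDK inhibitors above 2 TPM and of Cdk4 with Cdk6, with 1 stacked bar per library and the 4 groups side by side. Bars of the cyclins and inhibitors are tallest in CypD KO, at 1105 to 1136 TPM for the cyclins, where those of the kinases are lowest, at 287.4 to 305.4 TPM.

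Other genes of the cycle were taken from lists compiled by hand, with earlier results of these data known. Beside these and later list counts, 48.4% of all genes tested were called in CypD KO against WT and 37.4% in CypD OE against Control. The shares higher and lower were 30.1% and 18.4% in CypD KO, and 19% and 18.3% in CypD OE. Of 10 CDKs and their activators, 2 were higher and 6 lower in CypD KO against WT, and the median log2 fold change was -0.27 beside 0.09 over all genes, and 1 was higher and 6 lower after rescaling by median-of-ratios. The counts in CypD OE against Control were 4 higher and 3 lower (median 0.14). Cdc25a, a phosphatase that activates CDK2, had 78.67 and 81.19 TPM in WT and 44.04 and 44.81 TPM in CypD KO, a log2 fold change of -0.83 (SE 0.0387, limma adjusted p = 1.06e-05). Cdc25c, its relative at entry into mitosis, fell by 0.87 (SE 0.149, limma adjusted p = 0.00301). Cdk2, the main target of p21 and p27, fell in both comparisons, with a log2 fold change of -0.50 in CypD KO against WT (SE 0.0345, limma adjusted p = 5.56e-05) and -1.08 in CypD OE against Control (SE 0.0345, limma adjusted p = 3.27e-06). Cdk2 overlaps Pmel, a far more abundant melanosome gene on the opposite strand, whose reads could be part of its value. The mean TPM of Pmel was 2342 in WT, 1504 in CypD KO, 3285 in Control and 1725 in CypD OE, beside 265.9, 188.0, 353.4 and 166.5 for Cdk2, and the part of Pmel in the Cdk2 differences was not tested. Other genes named in this report also overlap genes on the opposite strand, among them Cdk4, Cdk6, Rb1, Mdm2, Skp2 and Cryab.

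Of 6 tested cyclins of later phases, 1 was higher and 1 lower in CypD KO against WT, whereas 4 were higher and 0 lower in CypD OE against Control (medians 0.00995 and 0.37); after rescaling, CypD KO had 1 higher and 3 lower. Ccne1 (cyclin E1, the first partner of CDK2) rose by 0.51 in CypD OE against Control (SE 0.0949, limma adjusted p = 0.00617), and its difference in CypD KO was 0.05 (limma adjusted p = 0.675). Of the 19 S-phase genes known as E2F targets, 13 were lower and 0 higher in CypD KO, with a median of -0.22 beside 0.09 over all genes, and 14 were lower after rescaling. Mcm10, a replication initiation factor, had 74.52 and 75.70 TPM in WT and 46.94 and 45.98 TPM in CypD KO (log2 fold change -0.68, limma adjusted p = 4.62e-05). Tyms (thymidylate synthase) and Mcm3 (a subunit of the replicative helicase) fell by 0.59 and 0.55 (limma adjusted p = 0.000416 and 0.000394). In CypD OE against Control, 5 of the 19 were higher and 3 lower (median 0.0067; 4 and 3 after rescaling). The D-type cyclins were thus higher in CypD KO, where 13 of the 19 S-phase genes were lower.

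Among 17 genes of the RB family, E2F factors and the DREAM complex, 5 were higher and 4 lower in CypD KO against WT (median 0.03), a split that turned to 2 higher and 6 lower after rescaling. The number called there was near the share over all genes, 48.4%. For CypD OE against Control, 6 were higher and 3 lower (median 0.09), where 37.4% of all genes were called. Rb1, the retinoblastoma gene on which cyclin D kinases act, had 8.95 and 9.44 TPM in WT and 19.92 and 20.16 TPM in CypD KO (log2 fold change 1.05, SE 0.0821, limma adjusted p = 9.24e-05). E2f3, an activating E2F, had a log2 fold change of -0.37 there (limma adjusted p = 0.00334) and of 0.78 in CypD OE against Control (limma adjusted p = 0.000203).

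Pathways known to act on the 10 genes were described in the same way. Of 17 tested p53 target genes, 14 were higher and 0 lower in CypD KO against WT, the median log2 fold change being 0.90, and 11 were higher and 0 lower after rescaling. In CypD OE against Control, 6 were higher and 1 lower (median 0.17), and in Control against WT, which shares libraries with both, 0 were higher and 12 lower (median -0.30). All genes called were 48.4%, 37.4% and 24.2% of those tested in these comparisons, in that order. Mdm2, the ubiquitin ligase that p53 induces against itself, had 114.69 and 122.21 TPM in WT, 289.23 and 303.09 TPM in CypD KO, 89.36 and 84.19 TPM in Control and 110.00 and 106.06 TPM in CypD OE. Plk2, a polo-like kinase, had 14.68 and 14.22 TPM in WT, 55.03 and 53.05 TPM in CypD KO, 8.07 and 8.95 TPM in Control and 12.91 and 11.95 TPM in CypD OE. Both genes had the order of groups seen for Cdkn1a, with CypD KO highest and Control lowest. Btg2, an antiproliferative p53 target, rose by 1.79 in CypD KO (SE 0.138, limma adjusted p = 8.79e-05). Trp53inp1, a p53-induced nuclear protein gene, rose by 1.44 in CypD KO (limma adjusted p = 9.11e-06) and had a log2 fold change of -0.37 in CypD OE against Control (limma adjusted p = 0.00447).

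MAPK feedback genes, which report on signalling from RAS to ERK and thus on a known driver of Ccnd1, were called in both comparisons: of 12 tested, 8 were higher and 1 lower in CypD KO against WT (median 0.48; 7 and 3 after rescaling), and 11 were higher and 0 lower in CypD OE against Control (median 0.98). Etv5, an ETS factor induced by ERK, had 15.27 and 15.00 TPM in WT, 21.60 and 21.30 TPM in CypD KO, 7.11 and 7.22 TPM in Control and 59.46 and 55.58 TPM in CypD OE. Its relative Etv4 and the ERK inhibitor Spry4 had log2 fold changes of 3.37 and 1.81 in CypD OE against Control (limma adjusted p = 0.000273 and 9.77e-05). Etv5 was highest in CypD OE, while Ccnd1 was highest in CypD KO, so the order of groups differed between them. Other genes of the list were highest in CypD KO. Spry2, named after its values were seen, had the Ccnd1 order by mean TPM. Its means were 39.66 in CypD KO, 29.98 in CypD OE, 14.96 in WT and 14.48 in Control. A link of these genes to Ccnd1 was not tested. Of 9 TGF-beta target genes, 7 were higher and 2 lower in CypD KO (median 1.02), and 6 were higher and 1 lower in CypD OE against Control (median 0.43); after rescaling, CypD KO had 6 higher and 2 lower. Of 9 FoxO factors and target genes, 7 were higher and 0 lower in CypD KO (median 0.62; 6 and 1 after rescaling), among them Gadd45a, a stress-induced growth arrest gene, at 5.08 and 7.11 TPM in WT and 37.73 and 37.33 TPM in CypD KO. In CypD OE against Control, 3 of these 9 FoxO genes were higher and 2 lower (median 0.0045). Over all genes tested, 30.1% were higher and 18.4% lower in CypD KO against WT, and 19% and 18.3% in CypD OE against Control.

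Genes that govern the turnover of p27 and D-type cyclin proteins were mixed, with 6 of 15 higher and 3 lower in CypD KO against WT (median 0.13; 4 and 5 after rescaling) and 4 higher and 5 lower in CypD OE against Control (median -0.04). The shares of all genes called in these comparisons were 48.4% and 37.4%. Skp2, the subunit that targets p27 for degradation, had 51.34 and 53.24 TPM in WT and 30.49 and 29.74 TPM in CypD KO (log2 fold change -0.78, SE 0.0506, limma adjusted p = 4.16e-05), and Cdkn1b was higher there. In CypD OE against Control, Skp2 and Cdkn1b were both lower (Skp2 -0.25, limma adjusted p = 0.0089). These are RNA values, whereas SKP2 acts on p27 protein. Turnover of p27 and D-type cyclin proteins cannot be read from them and was not tested. Cryab, which acts with FBXO4 on cyclin D1, rose from 360.92 and 369.00 TPM in WT to 1287.67 and 1248.48 TPM in CypD KO (log2 fold change 1.79, limma adjusted p = 1.14e-06).

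HIF target genes were included because the groups differed in oxygen. Of 8 tested, 7 were higher and 1 lower in CypD KO against WT at 21% oxygen (median 2.18), 8 were lower in CypD OE against Control at 1% oxygen (median -2.11), and 8 were higher in Control against WT (median 2.09). Of all genes tested, 48.4%, 37.4% and 24.2% were called in these comparisons. The lower gene in CypD KO was Ndrg1 (log2 fold change -0.22, limma adjusted p = 0.0112), named after its value was seen. Bnip3, a mitophagy receptor, had 14.42 and 11.09 TPM in WT, 258.34 and 249.31 TPM in CypD KO, 311.44 and 307.06 TPM in Control, and 13.59 and 12.52 TPM in CypD OE. CypD KO and Control were thus the high groups for Bnip3 and Vegfa. They were also the highest groups for Cdkn1b and, by mean TPM, for Cdkn1c, which passed no test. The steps of Cdkn1b differed from those of Bnip3. Mean TPM of Bnip3 was 13.06 in CypD OE and 12.76 in WT. That of Cdkn1b was 65.14 in CypD OE, beside 71.6 in CypD KO and 49.41 in WT. A link of either inhibitor to HIF was not tested. Ccnd1, Ccnd2 and Cdkn1a were highest in CypD KO but, by mean TPM, lowest in Control, unlike Bnip3 and Vegfa.

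**Figure D5:**
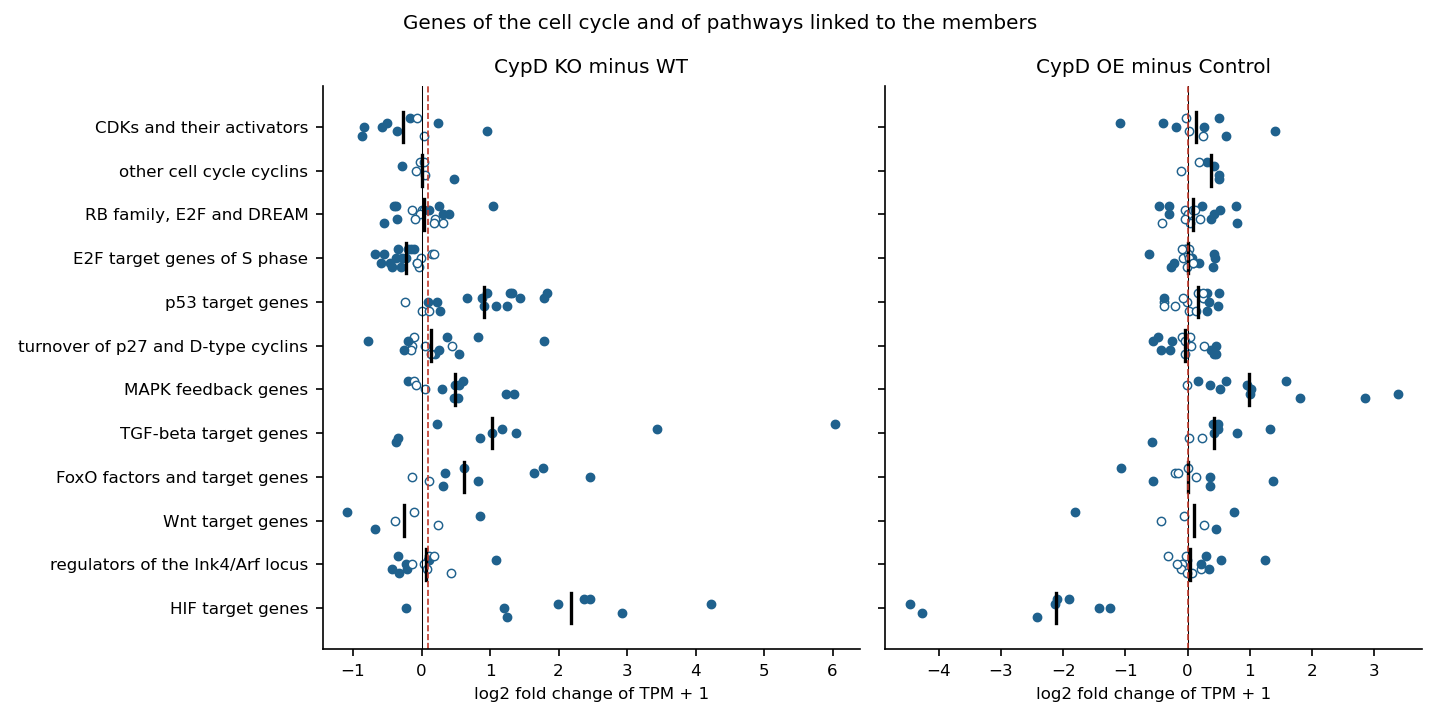
Log2 fold change of TPM + 1 (horizontal axes, which differ in range) of each tested gene in 12 lists, in CypD KO against WT and in CypD OE against Control; filled points passed the adjusted threshold of 0.05 in limma, black bars are list medians and the dashed line is the median of all genes. The p53 list has a median of 0.90 in the first panel and 0.17 in the second, the S-phase list -0.22 and 0.0067, and the HIF list 2.18 and -2.11.

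Across the 8 libraries, Ccnd1, Ccnd2 and Ccnd3 had pairwise Pearson correlations of 0.95 to 0.99 in log2(TPM + 1), and Cdkn1a correlated with Ccnd1 at 0.968. Cdkn1b correlated with Cdkn1a at -0.0424, and Cdkn2c with Cdkn1a at -0.76. These are descriptions of 8 libraries in 4 groups of 2, with CypD KO far from the rest, and points of a group share its cells. Among 2412 genes whose group means spanned at least 1 on the log2 scale, the 3 most like Cdkn1a were Samd5 (0.996), Btg2 (0.9944) and Plk2 (0.9933), and Btg2 and Plk2 are p53 target genes of the list above. The 3 most like Ccnd1 were Cdc42ep1 (0.9985), Adamts4 (0.998) and Thbs1 (0.9963). The next genes were close behind, at 0.9932 for Cdkn1a and 0.9961 for Ccnd1, so the cut at 3 is arbitrary. Thbs1, which encodes thrombospondin 1, was at 8.59 to 8.62 TPM in WT, 91.06 to 91.14 TPM in CypD KO, 5.80 to 5.83 TPM in Control and 13.44 to 13.70 TPM in CypD OE, the same order of groups as Ccnd1 apart from the size of the steps.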

How the data were processed

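Total RNA libraries with ribosomal RNA depletion were sequenced by the authors in paired-end reads, trimmed with Cutadapt 3.4, aligned to GRCm39 with STAR 2.7.8a and quantified with RSEM 1.3.1. The values the authors deposited are TPM, with 1 fixed total per library, so that a rise of abundant transcripts lowers all others. RSEM shares out reads that match more than 1 gene. The authors' own tests used DESeq2 1.26.0 on read counts, which were not used here.

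Samples were grouped by genotype labels, with 0 columns of the table left without a sample. limma 3.58.1 in R 4.3.3 (lmFit, eBayes with trend, two-sided) was run on log2(TPM + 1). CypD KO was compared with WT, CypD OE with Control, and both 1% oxygen groups with WT. Contrasts of CypD KO with the 1% oxygen groups were added after seeing the data, to order the levels. The genes and lists were chosen with earlier results of these data known. From each list, up to 4 genes with an adjusted p under 0.05 and the largest absolute log2 fold change in either of the first 2 contrasts could be named, besides Cdk4, Cdk6, Mtap and Kcnq1ot1. The fit was tested on simulated data. Depth was estimated from low values: 83.4% to 86.1% of them were whole fragments to within 0.15, against 30% by even spread, and 17942 to 19692 genes per library were above 0. Of the 55414 gene identifiers, 54749 (98.8%) were in the annotation used for positions (GENCODE, GRCm39). Start windows came from RefSeq GRCm38.p6 and were not converted between builds. Windows inside an annotated transcript were not printed. Alternatives were a pseudocount of 0.1, no filter, a minimum of 5 TPM, eBayes without trend, rescaling by median-of-ratios, separate fits of each contrast's 4 libraries, a replicate block and leaving out each library in turn. Figures were drawn in Python 3.11.15.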

Additional observations from a re-analysis of the deposited data

How the results depend on the processing

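Of the 656 alternative values computed for 44 results, 620 kept their direction and side of the threshold, or stayed within 1.5 times for counts. The number of genes called in Control against WT (3269) was 1981 when the 4 libraries of that comparison were fitted alone and 2009 to 2900 when 1 library was left out, and in CypD OE against WT (3744) it was 2295 to 3558 when 1 library was left out; these fits have fewer libraries. The direction turned in CypD OE against WT, without a call, for Cdkn1c (0.26 without WT replicate 1 and 0.15 without CypD OE replicate 1, in a range of -0.37 to 0.26) and for Cdkn2c (-0.040 without WT replicate 2, in a range of -0.040 to 0.23). Ppif passed the threshold in CypD OE against Control and in Control against WT without either CypD KO library (limma adjusted p = 0.0325 to 0.0396). A filter of 5 TPM leaves no value for Cdkn1c. Deviations of same-numbered libraries correlated at -0.0295 to 0.108 over 6 pairs of groups, and nothing in the labels ties them, so the numbers were not taken as pairs. With the replicate block, 6 of the 8 genes were called in CypD KO against WT, 7 in CypD OE against Control, 4 in Control against WT and 5 in place of 6 in CypD OE against WT, where Ccnd1 was lost (limma adjusted p = 0.0571). Genes of a few fragments, such as Cdkn1c, are limited by depth.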

Other observations

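The other lists were described in the same way as those of the report. Their counts stand beside 48.4% of all genes called in CypD KO against WT and 37.4% in CypD OE against Control. Of 6 tested Wnt target genes, 1 was higher and 2 lower in CypD KO against WT (median log2 fold change -0.25; 1 and 3 after rescaling), and 2 were higher and 1 lower in CypD OE against Control (median 0.10). Myc, a transcription factor gene of cell growth, had 99.12 and 93.35 TPM in WT, 45.47 and 44.38 TPM in CypD KO, 71.14 and 74.76 TPM in Control and 124.80 and 121.52 TPM in CypD OE. It fell by 1.08 in CypD KO (SE 0.0469, limma adjusted p = 8.46e-06) and rose by 0.75 in CypD OE against Control (limma adjusted p = 6.38e-05). Axin2, a feedback inhibitor of Wnt signalling, had 10.14 and 11.08 TPM in Control but 2.03 and 2.63 TPM in CypD OE (log2 fold change -1.81, limma adjusted p = 0.000111).

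Of 14 tested regulators of the Ink4/Arf locus, 2 were higher and 5 lower in CypD KO against WT (1 and 6 after rescaling) and 5 were higher and 0 lower in CypD OE against Control, while Cdkn2a and Cdkn2b were listed at 0 throughout. Id1, an inhibitor of helix-loop-helix factors that represses p16, rose by 1.09 in CypD KO (limma adjusted p = 2.57e-05) and by 1.24 in CypD OE against Control (limma adjusted p = 2.47e-05). Of 6 tested neighbours of Cdkn1c, 2 were higher and 1 lower in CypD KO against WT, and 0 were higher and 1 lower in CypD OE against Control. Phlda2, an imprinted growth-restricting gene beside Cdkn1c, had 1.46 and 1.21 TPM in WT, 4.01 and 4.09 TPM in CypD KO, 1.12 and 1.14 TPM in Control and 0 and 0.29 TPM in CypD OE. Kcnq1ot1, the long noncoding RNA of the same imprinted domain, was below the filter, at 0.47 to 0.86 TPM.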
